A study of Mus musculus with 12 samples.

Results

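Citrate export and the NADPH-supplying pentose phosphate pathway were represented by 7 genes, Slc25a1, Me1, Pgls, Pgd, Rpia, Tkt and Taldo1. They were followed in mouse skeletal muscle through 13 probe sets, all those whose single annotated symbol was one of the 7, out of 45098 probe sets on the array and 18193 genes with a probe set of their own. The genes were chosen on the diet differences of these same arrays, all 3 contrasts included. Their own differences between groups are therefore given as a description, with no p-value printed, and no finding rests on them. Counts of member probe sets that passed limma's thresholds follow further on. They are a description too, because the same contrasts chose the genes. Of the 7, Slc25a1 exports citrate, Me1 supplies NADPH outside the pentose phosphate pathway, and the other 5 are enzymes of that pathway.

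Citrate made in mitochondria leaves them through the carrier Slc25a1, and in the cytosol ATP citrate lyase splits it into acetyl-CoA, the carbon source of fatty acid synthesis. The oxaloacetate left over can return to pyruvate through malate, and the cytosolic malic enzyme Me1 yields NADPH on the way. The oxidative pentose phosphate pathway is the other classical source of cytosolic NADPH: Pgls hydrolyses its lactone and Pgd, the 6-phosphogluconate dehydrogenase, makes NADPH. Rpia, Tkt and Taldo1 belong to the non-oxidative branch, which makes no NADPH itself but interconverts pentose phosphates and glycolytic sugars. In adipose tissue and liver these genes are known to go up and down with lipid synthesis, whereas skeletal muscle makes little fat.

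RNA came from skeletal muscle of C57Bl/6 mice, and biotin-labelled cRNA was hybridised to 12 Affymetrix arrays, 4 per group. All mice ate standard chow, with 13% of calories from fat, up to 6 weeks of age. The control group (chow) stayed on it, and the other mice were switched to a high-fat diet (46% fat calories) that lasted either 5 or 42 days. Both times share the 4 chow arrays. Both high-fat groups were switched at 6 weeks, so mice fed for 42 days were older than mice fed for 5 days. Age and time on the diet therefore cannot be told apart between the 2 times. Age may also differ in the contrasts with chow. Sources used here do not say which muscle was taken, the sex of the mice, how old the chow mice were, or whether replicates were separate animals, so SDs and p-values measure only the spread between these samples. Values are log2 RMA signals: a difference of 1 is a 2-fold difference, and ± gives the SD of 4 arrays for a group and the SE of the fit for a difference.

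The 9 muscle marker genes, such as the creatine kinase Ckm and the skeletal actin Acta1, averaged 15.04 ± 0.029 on chow, 15.05 ± 0.013 at 5 days and 15.06 ± 0.0076 at 42 days. They lay near the top of the signal range, whose highest value was 15.46, so their likeness was not taken to show equal muscle content. Array medians ran from 7.651 to 7.692 on chow, from 7.595 to 7.6315 at 5 days and from 7.657 to 7.702 at 42 days, so all 5-day medians lay below those of the other groups. With every array centred on its median, limma called 4 of the 13 probe sets of the 7 genes between the times, where the fit reported called 0. Over all 45037 probe sets the centred arrays gave 5221 calls, 4715 of them lower, against 2692 in the fit reported. The 10 measured white adipocyte markers all lay above the lower quartile of their arrays in every group. Their summed linear signal ran from 21129 to 41401 on chow, from 16649 to 22445 at 5 days and from 16339 to 24964 at 42 days. The 6 liver-typical transcripts, such as Alb, summed to 2005 to 2968 on chow, 1755 to 5729 at 5 days and 4883 to 13051 at 42 days, where 6 of 6 rose by limma; their part in the differences of the 7 genes was not tested. In bulk muscle, fewer cells of a type and less RNA per cell cannot be told apart.

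The promoters of Slc25a1, Tkt and Pgd are shown because these 3 genes had the largest differences between groups. Each line gives the 250 bases before the annotated start, 5′ to 3′ on the gene's own strand, from RefSeq on GRCm38.p6; capitals mark motif matches on either strand.
Slc25a1, chr16:17928220-17928469, minus strand: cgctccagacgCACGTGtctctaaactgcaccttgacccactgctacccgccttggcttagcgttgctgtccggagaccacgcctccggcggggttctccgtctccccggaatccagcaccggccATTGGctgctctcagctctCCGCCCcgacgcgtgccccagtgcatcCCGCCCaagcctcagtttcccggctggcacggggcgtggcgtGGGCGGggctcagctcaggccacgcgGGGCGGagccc
Tkt, chr14:30548881-30549130, plus strand: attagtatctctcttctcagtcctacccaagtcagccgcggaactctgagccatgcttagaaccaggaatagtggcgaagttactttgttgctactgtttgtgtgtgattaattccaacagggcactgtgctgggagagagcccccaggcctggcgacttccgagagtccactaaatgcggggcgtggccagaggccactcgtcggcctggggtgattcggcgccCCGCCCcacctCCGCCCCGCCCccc
Pgd, the outer of 2 annotated starts, chr4:149166706-149166955, minus strand: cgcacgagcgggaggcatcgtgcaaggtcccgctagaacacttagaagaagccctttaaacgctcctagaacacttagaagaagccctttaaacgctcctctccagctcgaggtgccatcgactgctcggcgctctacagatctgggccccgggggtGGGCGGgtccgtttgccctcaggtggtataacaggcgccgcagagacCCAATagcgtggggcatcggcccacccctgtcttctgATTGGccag
All 7 genes had a promoter entry, 9 in all because Pgd and Me1 have 2 starts each. The motifs searched were the E-box CACGTG, a pair of E-boxes at a spacing of 5 bases, the sterol response element TCACNCCAC, the antioxidant response element core TGACNNNGC, the CCAAT box and the GC box GGGCGG; a pair would also count as single E-boxes, and GC boxes may overlap each other, as the last 2 in Tkt do. The E-box stood in 1 of the 9 promoters, that of Slc25a1, and in 6.02% of all 32851 promoters of this length. The CCAAT box stood in 4 of 9 promoters, those of Pgd (2 matches), Taldo1, Slc25a1 and the inner start of Me1, against 33.8% of all. The GC box stood in 7 of 9 promoters against 32.7%, with 4 matches in Slc25a1, 3 in Tkt and 1 in Pgd. The sterol element (1.05% of all promoters), the antioxidant core (10.2%) and the paired E-box (0 of 32851) matched none of the 9. A match is a string of letters in this window and was not tied to binding of any factor.

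**Figure D1:**
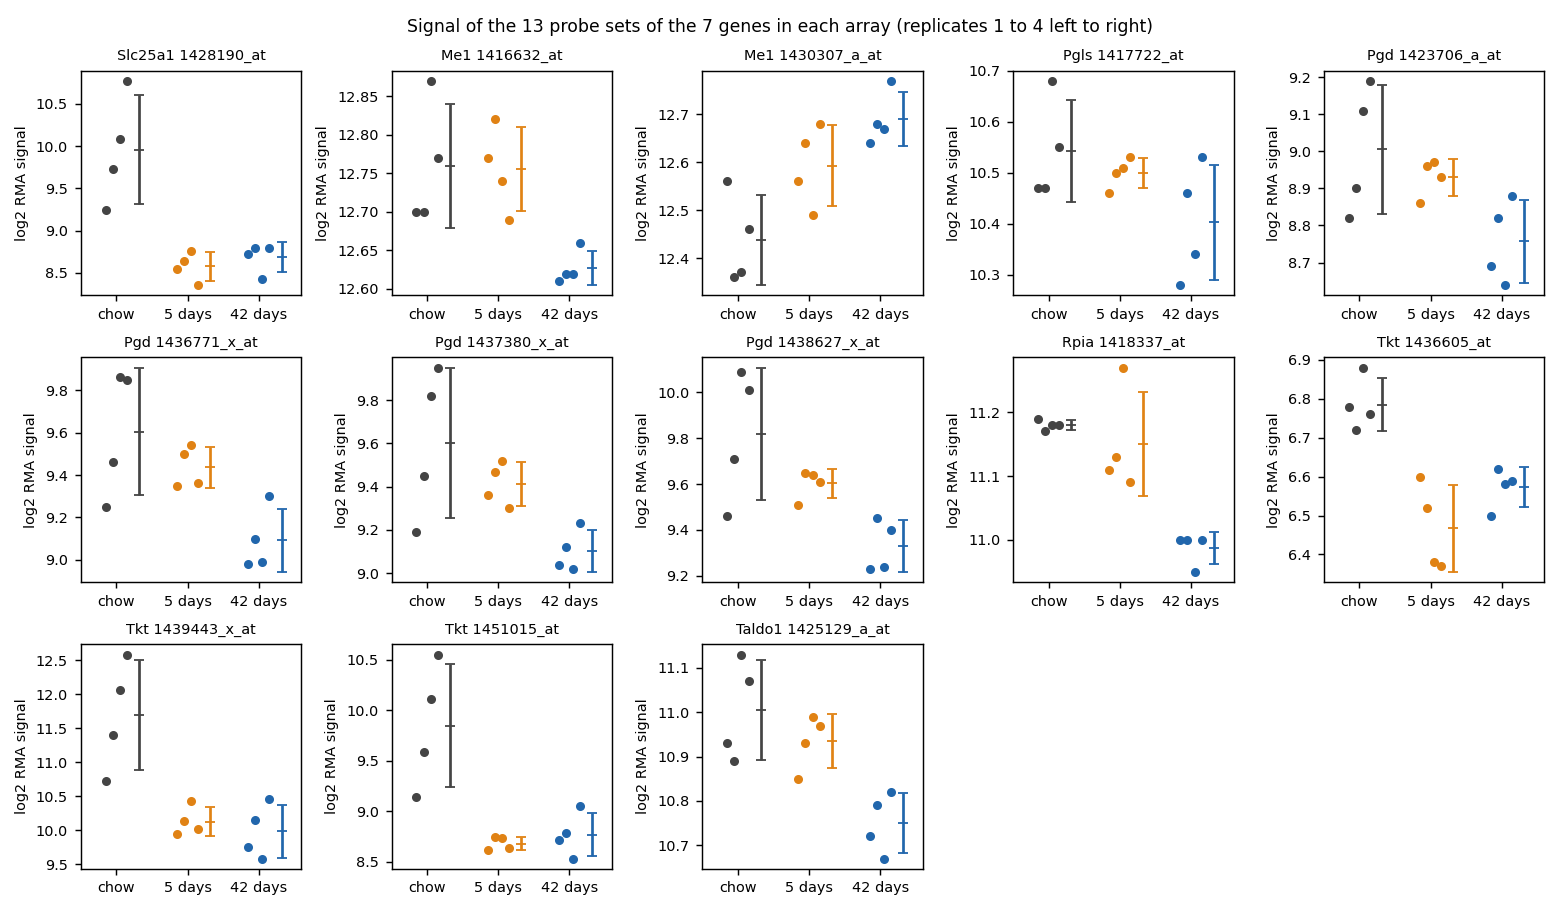
Log2 RMA signal (vertical axis) of each of the 13 probe sets in each array, by group (horizontal axis; replicates 1 to 4 from left to right), with the mean and SD beside the points. Slc25a1 and the brighter Tkt probe sets are spread out on chow and low in all 8 high-fat arrays, whereas Pgd, Rpia and Taldo1 are lowest at 42 days.

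The citrate carrier Slc25a1 (probe set 1428190_at) was lower at both times. Its log2 signal was 9.24, 9.73, 10.08 and 10.77 in chow replicates 1 to 4, and 8.55, 8.64, 8.76 and 8.36 in the 5-day arrays. At 42 days it was 8.73, 8.80, 8.43 and 8.80. Every high-fat array was below every chow array, and the chow arrays differed from each other by up to 1.53 where the SD on the diet was 0.17 and 0.18. The mean difference from chow was -1.38 ± 0.22 at 5 days (2.59-fold lower) and -1.26 ± 0.22 at 42 days (2.39-fold lower), and the 2 times differed by 0.12 ± 0.22.

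The transketolase Tkt, which moves 2-carbon units between sugar phosphates, had the largest difference among the 7 genes. Its brightest probe set (1439443_x_at) read 10.72, 11.40, 12.06 and 12.58 on chow, 9.94, 10.13, 10.42 and 10.01 at 5 days, and 9.75, 10.14, 9.58 and 10.45 at 42 days. No high-fat array reached the lowest chow array, and the group means differed from chow by -1.56 ± 0.29 (2.95-fold lower) and -1.71 ± 0.29 (3.27-fold lower). The suffix _x marks a probe set in which some probes may also bind other transcripts. A second probe set without that mark (1451015_at) read 9.14, 9.59, 10.11 and 10.55 on chow, 8.61 to 8.74 at 5 days and 8.53 to 9.05 at 42 days. Its differences were -1.17 ± 0.21 and -1.08 ± 0.21, with no overlap at either time, and its 4 chow arrays had the same order as in the first probe set. The third Tkt probe set (1436605_at) was dim, at the 27.1st percentile of all probe sets, and lower by 0.32 ± 0.063 and 0.21 ± 0.063 on the log2 scale, again without overlap. Its chow arrays did not keep that order: replicate 3 was highest at 6.88 and replicate 2 lowest at 6.72. The mean of the 3 Tkt probe sets differed from chow by -1.02 at 5 days, and 42 days differed from 5 days by 0.02.

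The transaldolase Taldo1 (1425129_a_at; the suffix _a marks a probe set shared by transcripts of one gene) behaved otherwise. It read 10.93, 10.89, 11.13 and 11.07 on chow, 10.85, 10.93, 10.99 and 10.97 at 5 days, and 10.72, 10.79, 10.67 and 10.82 at 42 days. The 5-day arrays overlapped the chow arrays, and the 42-day arrays lay below all others. The difference was -0.07 ± 0.064 at 5 days and -0.26 ± 0.064 at 42 days (1.20-fold lower).

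Rpia, the ribose 5-phosphate isomerase (1418337_at), was 11.19, 11.17, 11.18 and 11.18 on chow. At 5 days it was 11.11, 11.13, 11.27 and 11.09, on both sides of the chow values. At 42 days it was 11.00, 11.00, 10.95 and 11.00, below all other arrays, with a difference of -0.19 ± 0.053 (1.14-fold lower). The SD of 0.0074 on chow was the smallest of any group of the 13 probe sets.

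Pgd, the NADPH-making dehydrogenase, was read by 4 probe sets, of which 3 carry the _x mark. In the brightest (1438627_x_at) the chow arrays read 9.46, 9.71, 10.09 and 10.01, the 5-day arrays 9.51, 9.65, 9.64 and 9.61, and the 42-day arrays 9.23, 9.45, 9.24 and 9.40. The 5-day values lay inside the chow range; the 42-day values lay below all other arrays. The difference from chow was -0.21 ± 0.11 at 5 days and -0.49 ± 0.11 at 42 days (1.40-fold lower), and that between the times was -0.28 ± 0.11. The other _x probe sets (1436771_x_at and 1437380_x_at) were at -0.51 ± 0.12 and -0.50 ± 0.13 at 42 days, but there the highest 42-day array (9.30 and 9.23) exceeded chow replicate 1 (9.25 and 9.19). The probe set without the mark (1423706_a_at) showed a smaller difference of -0.25 ± 0.08, with 42-day arrays from 8.64 to 8.88 and chow arrays from 8.82 to 9.19. The 4 probe sets share a gene and the same RNA, so they are not replicates of each other.

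Pgls, the lactonase before Pgd (1417722_at), was 10.47, 10.47, 10.68 and 10.55 on chow, 10.46 to 10.53 at 5 days, and 10.28, 10.46, 10.34 and 10.53 at 42 days. The groups overlapped at both times, with differences of -0.04 ± 0.066 and -0.14 ± 0.066.

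The malic enzyme Me1 gave opposite readings. Its probe set 1416632_at averaged 12.76 ± 0.078 on chow and 12.76 ± 0.051 at 5 days, and 12.61, 12.62, 12.62 and 12.66 at 42 days lay just below the lowest array of the other groups (-0.13 ± 0.054 against chow). The second probe set (1430307_a_at) read 12.56, 12.36, 12.37 and 12.46 on chow, 12.56, 12.64, 12.49 and 12.68 at 5 days, and 12.64, 12.68, 12.67 and 12.77 at 42 days. All 42-day arrays were above all chow arrays there, by 0.25 ± 0.063 (1.19-fold higher). Both probe sets were among the brightest on the array, at the 98.0th and 97.7th percentiles, and no single direction describes Me1 as a gene.

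**Figure D2:**
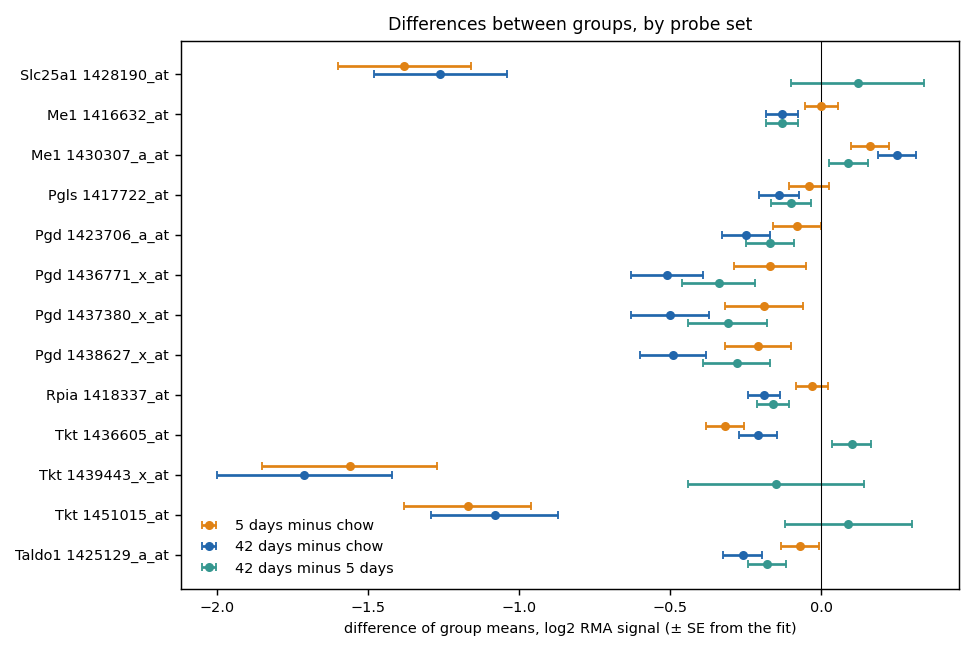
Difference of group means in log2 RMA signal (horizontal axis, points with SE from the fit) for each probe set and contrast. Slc25a1 and 2 Tkt probe sets lie between -1.08 and -1.71 at both times with 42 minus 5 days within 1 SE of 0; the Pgd probe sets lie further from 0 at 42 days than at 5 days.

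The fit was limma, a linear model with a spread shared across probe sets, and adjusted p-values take in all of them. Counts over the 13 probe sets are given beside the share of all 45037 probe sets that met the same rule; nothing is read from them, since the choice of genes used these contrasts. At 5 days 4 were lower at an adjusted p under 0.05 by limma (Slc25a1 and all 3 of Tkt), where 1.68% of all probe sets were, and 0 were higher, against 1.53%. At an unadjusted p under 0.05 there were 5 of 13, against 24.1% of all. The same 4 lay wholly below chow, against 6.83% of all, and 0 wholly above, against 4.88%. At 42 days 9 of 13 were lower at that threshold, against 4.13% of all, and 1 was higher, the _a probe set of Me1, against 4.65%. The Me1 call was lost without chow replicate 2 or 3 or 42-day replicate 2 or 4, and with the white adipocyte marker mean as a covariate. At an unadjusted p under 0.05 there were 12 of 13, against 23.1% of all. Groups did not overlap in 8 lower probe sets (7.81% of all) and 1 higher one (7.42%). The 5-day count was 0 without chow replicate 3, 0 without 5-day replicate 2 and 2 without 5-day replicate 4; the 42-day count in both directions, 10, was 4 without chow replicate 3. It was 6 without chow replicate 4, 42-day replicate 1 or 42-day replicate 3. Over all probe sets, the same leave-outs called 5, 5 and 220 at 5 days, against 1445 with all arrays. At 42 days they called 1945 without chow replicate 3, and 2736, 2718 and 2858 in the order named, against 3953. The median difference of the 13 was -0.175 at 5 days and -0.257 at 42 days, where all probe sets had -0.021 and -0.006.

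Between the 2 times, 42 days against 5 days, limma called 0 of 13 at an adjusted p under 0.05 where it called 5.98% of all probe sets (3.59% lower and 2.38% higher), and 7 of 13 had an unadjusted p under 0.05, against 27.6%. The 42-day arrays lay below all 5-day arrays in 6 probe sets (9.87% of all): the 3 _x probe sets of Pgd, Taldo1, Rpia and Me1 1416632_at. They lay above all 5-day arrays in 0 of 13, against 7.88% of all. The spread in this fit takes in the chow arrays. In a fit of the 8 arrays of these 2 times alone, limma called 3 of 13, the _x probe sets of Pgd. Of all 45037 probe sets 2903 were called there, and nothing is read from the members' count. In Slc25a1 and all 3 Tkt probe sets the 2 times overlapped. Thus all high-fat arrays of both times lay below chow for Slc25a1 and Tkt, whereas for Taldo1, Rpia, Pgd 1438627_x_at and Me1 1416632_at the 42-day arrays did and the 5-day arrays did not. Whether these time courses differ between genes was not tested.

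The SD on chow exceeded both diet SDs in 10 of 13 probe sets, the exceptions being Rpia, Pgls and Tkt 1436605_at. Chow replicate 1 was the lowest chow array in 8 of 13 probe sets and replicate 2 in the other 5. Replicate 3 was the highest in 6, replicate 4 in 5 and replicate 1 in 2. The white adipocyte marker sum was 21129, 26899, 25445 and 41401 in chow replicates 1 to 4. The 4 measured brown adipocyte markers summed to 717, 1535, 2200 and 3264 in these arrays, 618 to 725 at 5 days and 625 to 1489 at 42 days. Of these 4 genes 0 passed limma against chow at either time, with median differences of -0.95 and -0.62, beside -0.53 and -0.50 for the white markers. At each time 3 of the 4 had an unadjusted p under 0.05, against 24.1% of all probe sets at 5 days and 23.1% at 42 days. At 5 days these 3 were Ucp1, Cidea and Otop1, all lower. At 42 days they were Ucp1 (-1.05 ± 0.42) and Cidea (-1.27 ± 0.43), and Elovl3, which was higher (0.17 ± 0.067). Otop1 was dim, below the lower quartile of the arrays in every group. Of the white markers 10 of 10 were lower at 5 days, where 2 fell (Cidec and Retn) by limma. At 42 days 9 of 10 were lower, 0 passed and 6 had an unadjusted p under 0.05, against 23.1% of all probe sets. The part of adipocyte RNA in the differences of the 7 genes was not tested beyond the covariate fit. With the mean of the white markers as a covariate, Tkt 1439443_x_at differed from chow by -0.73 at 5 days and -1.08 at 42 days, and Slc25a1 by -0.80 and -0.83. Pgd 1438627_x_at moved from -0.21 to 0.02 at 5 days and from -0.49 to -0.31 at 42 days, and the other 3 Pgd probe sets were at 0.10 to 0.11 at 5 days, so their sign turned. Rpia moved from -0.19 to -0.17 at 42 days. In that fit limma called 0 of 13 probe sets at 5 days, 2 at 42 days (Slc25a1 and Tkt 1439443_x_at) and, between the times, all 4 of Pgd, with differences of -0.22 to -0.41. Over all probe sets the same fit called 0.00444%, 2.88% and 7.01% in these contrasts, and nothing is read from the members' counts.

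**Figure D3:**
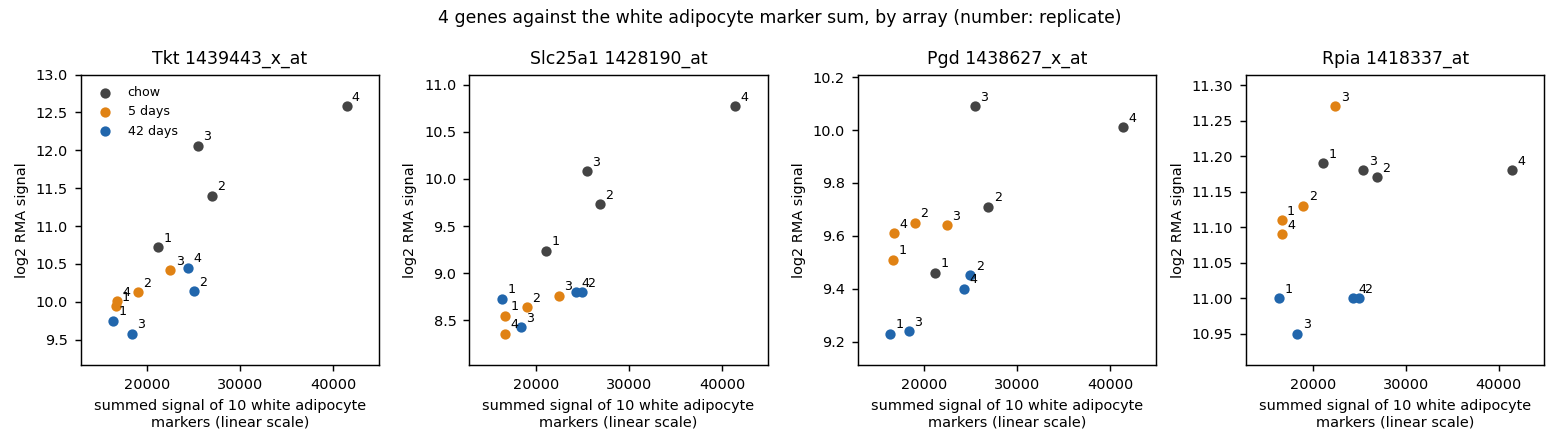
Log2 RMA signal of 4 probe sets (vertical axes) against the summed linear signal of 10 white adipocyte markers (linear scale, horizontal axes), 1 point per array, numbered by replicate and coloured by group. Chow replicate 4 is far to the right at 41401 with the highest Tkt and Slc25a1; the 42-day arrays are the lowest for Rpia across their whole range of marker sums.

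The other genes of the pathway were taken from 6 lists of 50 genes, of which 48 had a probe set of their own symbol; G6pdx and Mpc2 were not analysed here. Each was read by its brightest probe set and tested with limma over all probe sets. At 5 days 0 of 48 rose and 6 fell, and 42 did not pass; at 42 days 2 rose, 10 fell and 36 did not pass. The share called over all probe sets was 3.21% at 5 days and 8.78% at 42 days. The median over the 48 genes was -0.03 at 5 days and -0.06 at 42 days, near that of all probe sets. The 5-day count of 6 was 0 without chow replicate 3, 1 without 5-day replicate 2 and 3 without 5-day replicate 4. The 42-day count of 12 was 7 without chow replicate 3. Over all probe sets, those 5-day fits called 5, 5 and 220, and that 42-day fit called 1945.

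Among the other pentose phosphate and ribose phosphate genes 0 of 10 passed limma's test against chow at either time. At an unadjusted p under 0.05 there were 2 of 10 at 5 days and 4 of 10 at 42 days, against 24.1% and 23.1% of all probe sets. H6pd, which carries out the first oxidative steps inside the endoplasmic reticulum, was at 0.07 ± 0.07 and -0.12 ± 0.07, and G6pd2 was near the bottom of the signal range (4.70 to 4.76). Rpe, the epimerase between Pgd and Tkt, was at -0.11 ± 0.083 and -0.24 ± 0.083 (adjusted p = 0.446 and 0.0901). Prps1, which makes phosphoribosyl pyrophosphate from ribose 5-phosphate, was at -0.18 ± 0.06 at 42 days (adjusted p = 0.0766), and Rbks at -0.09 ± 0.069.

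In the shuttle of citrate, malate and pyruvate, 1 of 10 measured genes fell at 5 days, and 2 fell and 1 rose at 42 days. Acly, the ATP citrate lyase that uses exported citrate, went from 10.41 ± 0.58 on chow to 9.31 ± 0.078 and 9.14 ± 0.21 (SD, n = 4), and its 42-day change was -1.27 ± 0.20 (limma, adjusted p = 0.00162). Its 5-day change, -1.10 ± 0.20 (adjusted p = 0.0275), did not pass without chow replicate 3 (-1.01) or 5-day replicate 2 (-1.14). Pcx, the pyruvate carboxylase that refills oxaloacetate, fell at 42 days by 0.57 ± 0.14 (adjusted p = 0.0165), and the oxoglutarate carrier Slc25a11 rose by 0.25 ± 0.058 (adjusted p = 0.0138). Without chow replicate 3 or 4, or 42-day replicate 1 or 3, Pcx did not pass, with changes of -0.48 to -0.52. Without 42-day replicate 4, Slc25a11 was not past the test (0.23). The citrate synthase Cs (0.06 ± 0.049), Mdh2 (0.03 ± 0.047) and the pyruvate carrier subunit Mpc1 (0.12 ± 0.051) did not pass at 42 days.

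Of 12 genes listed as other NADPH suppliers, 0 passed limma at 5 days, with 4 at an unadjusted p under 0.05, against 24.1% of all probe sets. At 42 days Glud1 rose and Mthfd2 fell. The list also holds the NAD kinases Nadk and Nadk2, so its counts are not counts of dehydrogenases that make NADPH. Glud1, the glutamate dehydrogenase, was higher by 0.37 ± 0.078 (adjusted p = 0.00962). Mthfd2, of mitochondrial folate metabolism, was at -0.20 ± 0.058 (adjusted p = 0.047). It lost its call in a fit with the replicate number as a block and when any of 10 single arrays was left out. The call was also lost after cyclic loess or median centring, with 1 probe set per gene, in the 8 arrays alone and with the white marker covariate. The isocitrate dehydrogenase Idh2 (0.29 ± 0.12), the NAD kinase Nadk2 (0.20 ± 0.084) and Mthfd1 (-0.14 ± 0.059) did not pass.

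The lipogenic genes listed as users of citrate and NADPH differed more. The list also holds regulators (Thrsp, Srebf1 and Mlxipl) and Acss2, so its counts are not counts of enzymes that spend citrate or NADPH. Of 10 genes, 5 fell at 5 days and 7 at 42 days; earlier results of these data had already shown most of these falls, so they are no independent support. Fasn, the fatty acid synthase, was at 11.88 ± 0.77 on chow, 9.72 ± 0.38 at 5 days and 9.86 ± 0.20 at 42 days (SD, n = 4). Its changes were -2.15 ± 0.28 and -2.02 ± 0.28 (limma, adjusted p = 0.0112 and 0.000828). The elongase Elovl6, the desaturase Scd1, the acetyl-CoA carboxylase Acaca and the lipogenic regulator Thrsp also fell at both times, with 42-day changes of -1.08 ± 0.20, -1.15 ± 0.29, -0.94 ± 0.17 and -0.92 ± 0.20. At 5 days none of these 5 passed without chow replicate 3 (-0.80 to -2.06), and Fasn alone passed without 5-day replicate 2. Acaca, Scd1 and Thrsp did not pass without 5-day replicate 4, Scd1 and Thrsp without chow replicate 4 or 5-day replicate 1, and Scd1 without chow replicate 2 or 42-day replicate 2 or 3. Scd1 at 5 days also did not pass after quantile normalization (-1.18), cyclic loess (-1.19) or with array weights (-1.21). With a trended, robust prior neither Scd1 nor Thrsp passed at 5 days. Acss2 (-0.37 ± 0.096, adjusted p = 0.0273) and Mlxipl, which encodes ChREBP (-0.30 ± 0.068, adjusted p = 0.014), fell at 42 days. At 42 days Scd1 did not pass without chow replicate 3 or 4 or 42-day replicate 1 or 3 (-0.95 to -1.12), nor with a trended, robust prior (-1.15). Acss2 did not without chow replicate 3 or 4 or 42-day replicate 1, 2 or 4 (-0.28 to -0.38), and Mlxipl did not without chow replicate 3 (-0.25). In the 8 arrays of chow and 42 days alone Acss2 did not pass either (-0.37). Srebf1 (-0.09 ± 0.066), Scd2 (-0.02 ± 0.095) and Acacb (-0.19 ± 0.064) did not pass. With the white marker mean as a covariate 0 of the 48 pathway genes passed at 5 days and 3 at 42 days.

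Of the 6 antioxidant users of NADPH, 0 passed limma's test at either time against chow. At each time 1 of the 6 had an unadjusted p under 0.05, against 24.1% of all probe sets at 5 days and 23.1% at 42 days. The glutathione reductase Gsr was at 0.20 ± 0.06 at 5 days (adjusted p = 0.0652), Txnrd1 at 0.16 ± 0.092 and Cat at -0.03 ± 0.093.

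**Figure D4:**
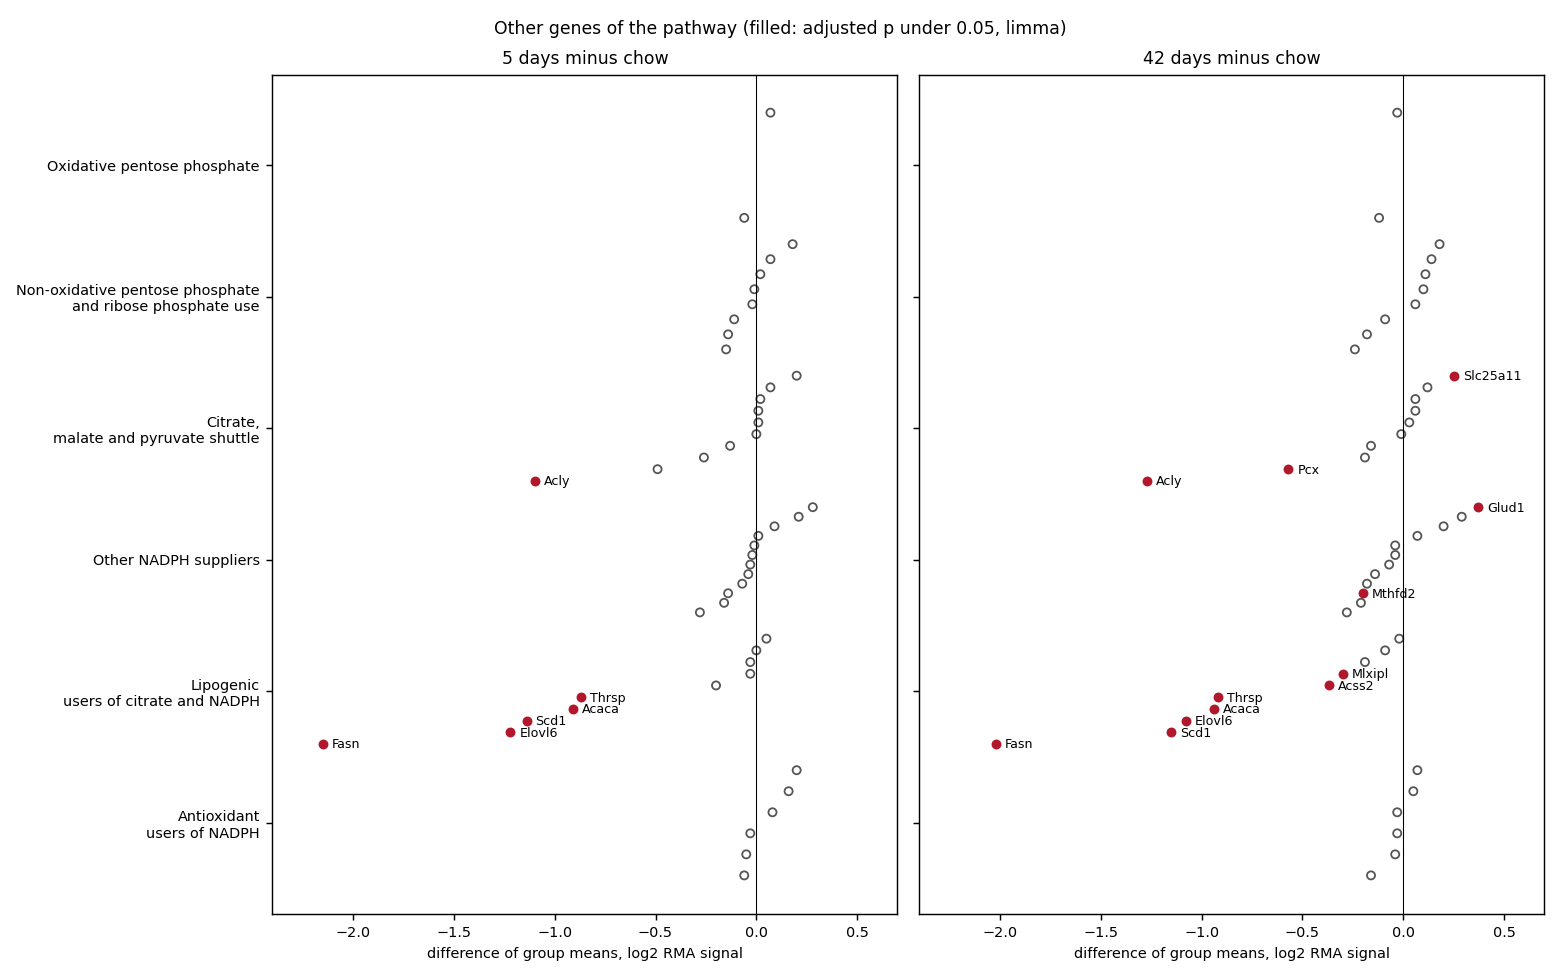
Difference from chow in log2 RMA signal (horizontal axis) of the 48 other pathway genes by list (vertical axis), 5 days left and 42 days right; filled points passed limma at an adjusted p under 0.05. The 6 filled points at 5 days are Acly and 5 lipogenic genes, and at 42 days Slc25a11 and Glud1 are filled to the right of 0.

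Likeness to the members was measured as the root mean square difference of centred log2 profiles over the 12 arrays, each gene read by its brightest probe set. The 7 genes themselves were left out of the ranking. Nearest to Tkt among the other genes were Fasn (0.32), Acly (0.33) and the liver-type glycogen phosphorylase Pygl (0.33). Nearest to Slc25a1 were the elongase Elovl6 (0.17), Acly (0.21) and Pygl (0.21). Tkt and Slc25a1 were 0.26 apart, whereas Slc25a1 and Taldo1 were 0.63 apart. Nearest to the mean profile of the 7 genes were Insig1, the regulator of SREBP processing (0.088), the taurine-synthesis enzyme Csad (0.094), the lysosomal cholesterol carrier Npc2 (0.097), Cox6a1 (0.097) and Prxl2a (0.099). The mean profile stood at 0.36 on chow, -0.12 at 5 days and -0.24 at 42 days around its own average, a size set mostly by Tkt and Slc25a1.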

How the data were processed

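Muscle transcripts of 12 samples were measured on Affymetrix arrays. The authors deposited log2 signals per probe set made with RMA, per the submitters' processing notes; version and software are not given in the sources used here, and values between 3.67 and 15.46 place them on a log2 scale. The values were used as deposited, without further normalization, although array medians differed between groups. Of 45098 probe sets, 61 controls were left out; 34945 had 1 symbol, 932 several and 9160 none in the platform annotation. All 13 member probe sets matched the RefSeq table by Entrez identifier.

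Group means of all 12 arrays were fitted with limma 3.58.1 (R 4.3.3; lmFit, eBayes) to 45037 probe sets, and p-values were adjusted by Benjamini-Hochberg within each of 3 contrasts, two-sided, at 0.05. The fit was tested on simulated data. Arrays have no read depth; their number limits the precision. Members and lists were chosen with earlier results of these data known. Named genes were all member probe sets, all list genes that passed, up to 3 further genes of each list with the highest signal, and the genes nearest in profile (5 to the mean, 3 each to Tkt and Slc25a1). Motifs were searched in RefSeq promoters. Alternatives were other normalizations, filters, priors, weights, covariates, a replicate block and leaving out arrays. Replicate numbers are not a known pairing, and correlations between same-number arrays cannot settle it. With group means removed, 4 of 12 same-number pairs correlated over 0.1.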

Additional observations from a re-analysis of the deposited data

Results flagged for a closer look

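Among 129 groups of 4 arrays examined for the 7 genes and the named pathway genes, 4 held an array that stood apart from the other 3. Chance gives about 1 in 20, a larger share than 4 of 129, so nothing is read from these arrays. For Rpia these were chow replicate 1 (11.19, beside 11.17 to 11.18) and 42-day replicate 3 (10.95, beside 11.00). For Prps2 it was 42-day replicate 1 (8.15), and for Rbks 5-day replicate 3 (8.31).

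In limma's test of 42 against 5 days, 2 of the 48 pathway genes passed, where 5.98% of all 45037 probe sets did. Nothing is read from that count, and the 2 genes are given as a description. Prps2, a phosphoribosyl pyrophosphate synthetase, was 7.66 ± 0.12 at 5 days and 7.99 ± 0.11 at 42 days (SD, n = 4), a difference of 0.32 (adjusted p = 0.029). Mlxipl was 11.22 ± 0.058 and 10.87 ± 0.045, a difference of -0.35 (adjusted p = 0.0206). Neither passed without 5-day replicate 2 or 3, or without 42-day replicate 1 or 4, at differences of 0.27 to 0.34 and -0.34 to -0.37; Prps2 also missed it without 42-day replicate 2 and after quantile normalization (0.27).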

How the results depend on the processing

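No called difference of a member probe set or named pathway gene changed sign under any alternative run. Leaving out single arrays gave 5 to 1591, 1945 to 4407 and 32 to 3173 probe sets called at 5 days, 42 days and 42 against 5 days (1445, 3953 and 2692 in all arrays). It gave 0 to 8, 7 to 16 and 0 to 3 pathway genes (6, 12 and 2), and 0 to 4, 4 to 10 and 0 to 1 member probe sets (4, 10 and 0). Fewer probe sets were called at 5 days without chow replicates 1, 3 and 4 (757, 5 and 332), 5-day replicates 2 and 4 (5 and 220) and 42-day replicates 2, 3 and 4 (807, 602 and 958). At 42 days there were 1945 and 2101 without chow replicate 3 and 42-day replicate 4. Between the times there were 96 and 210 without 5-day replicates 2 and 3, and 99, 434, 1514 and 32 without 42-day replicates 1 to 4. Pgd 1436771_x_at was called between the times without chow replicate 1, and pathway calls between the times were 0 without 5-day replicate 2 or 3 or 42-day replicate 1 or 4, and 1 without 42-day replicate 2. Calls of all probe sets at 5 days were 482 after quantile normalization (60.6% higher), 502 after cyclic loess (62.5% higher), 2771 with arrays centred on their median (85.3% higher, 47.5% in the fit reported), 692 with 1 probe set per gene, 7 in the 8 arrays alone, 675 with array weights, 2 with the adipocyte covariate and 4770 at an adjusted p under 0.1. At 42 days they were 1011 with 1 probe set per gene, 1296 with the covariate and 6114 at 0.1. Between the times they were 1210, 1128, 5221 (9.69% higher, 39.9% as reported), 1550 and 6769 under quantile, loess, centring, 1 probe set per gene and 0.1. Pathway calls at 5 days were 10 with centring, without the dimmest 40% and at 0.1, and 0 in the 8 arrays alone and with the covariate; at 42 days 3 with the covariate; between the times 1 after quantile normalization, 8 with centring and 4 at 0.1. Member calls at 5 days were 0 in the 8 arrays alone and with the covariate, and at 42 days 2 with the covariate. Between the times they were 4 with centring, 4 with the covariate, 3 in the 8 arrays alone, 3 at 0.1, and 1 each without the dimmest 40% and with a trended, robust prior. The cause was not tested. With the replicate number as a block, 1623, 3914 and 2831 probe sets, 6, 11 and 2 pathway genes and 4, 8 and 0 member probe sets were called; Rpia and Tkt 1436605_at lost their 42-day calls. The numbers are not a known pairing: for 4 of 12 arrays the best correlated array of another group had the same number.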
